A study of Mus musculus with 51 samples.

Results

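The mitochondrial ribosomal proteins were taken as every gene whose symbol reads Mrpl or Mrps followed by a digit, which gave 76 genes of the 14606 listed in at least 1 tissue. Diet-induced obese male C57Bl6 mice underwent Roux-en-Y gastric bypass (RYGB), in which food bypasses most of the stomach and the duodenum, or a sham operation. Both groups were given a liquid elemental diet after surgery and were later put back on a high fat diet, and the sham mice were held at the weight of the bypassed mice by restricting their food. Tissues were taken after an overnight fast 9 weeks after surgery, and the labels do not state the age of the mice. RNA was sequenced from scraped villi of duodenum (5 sham, 4 RYGB), jejunum (5 sham, 4 RYGB) and ileum (5 sham, 2 RYGB), and from liver (4 sham, 5 RYGB), subcutaneous white adipose tissue (5 sham, 4 RYGB) and gastrocnemius muscle (4 sham, 4 RYGB). The 51 libraries came from 5 sham and 5 RYGB animals, so most animals gave several tissues. The comparison in each tissue is bypass against a sham group of like weight.

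The mitochondrial ribosome, or mitoribosome, translates the few messenger RNAs encoded by mitochondrial DNA, all of which specify subunits of the respiratory chain and ATP synthase. Its ribosomal RNAs are made inside the organelle, whereas all of its proteins are encoded in the nucleus, made in the cytosol and imported. The large subunit holds the peptidyl transferase centre and the exit tunnel, and the small subunit binds the messenger RNA and decodes it. Some of the proteins have bacterial counterparts and others are found only in mitochondria. In adipose tissue the amount of this machinery is usually discussed with the oxidative capacity of fat cells, which is low in white and high in brown or beige fat.

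By symbol, 47 genes were Mrpl and 29 were Mrps. By structure, 49 encode proteins of the large subunit and 26 of the small subunit, because Mrps18a and Mrps30 sit in the large subunit despite their names. The remaining gene, Mrps36, encodes a component of the ketoglutarate dehydrogenase complex and is no ribosomal protein. The genes lie on 17 chromosomes of the mouse build GRCm38. Of the 76, 68 were listed in all 6 tissues. Values are CPM, read counts scaled to the total of their library, and a gene is listed in a tissue only where a number of libraries equal to the size of the smaller surgery group reached 1 CPM. The duodenum, ileum and adipose tables each held 75 of the members, those of jejunum and muscle held 74 and that of liver held 69. Mrpl23 was listed only in adipose tissue and Mrps36 only in the 3 intestinal tables. The liver table lacked Mrpl14, Mrpl54, Mrps11, Mrps21 and Mrps26, which gut, fat and muscle all listed.

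Promoters of nuclear genes for mitochondrial proteins often carry sites for NRF1 and for the ETS factor GABP, both regulators of mitochondrial biogenesis. RefSeq promoter windows of 300 bases (250 before to 50 after the start site, build GRCm38.p6) were available for 67 of the 76 genes, as 73 windows. On either strand, the NRF1 core (GCGCA and GCGC separated by 1 open base) was found in 13 of the 73 windows, or 17.8%. The same letters were found in 4.60% of all 32851 mouse windows and in 9.49% of the windows of genes listed in adipose tissue. The ETS core CCGGAAG was found in 24 member windows, or 32.9%, against 8.86% of all windows and 16.5% of those of adipose-listed genes. The YY1 core (AAGATG followed directly by GCGG) was found in 5 member windows, or 6.85%, against 0.852% of all windows and 1.88% of those of adipose-listed genes. The E-box CACGTG was found in 7, or 9.59%, against 7.15% of all windows and 9.66% of those of adipose-listed genes. Windows and not genes were counted, and several of these E-box windows are overlapping windows of Mrpl2 that hold the same site. The ERR element (TCAAGG followed directly by TCA) was found in 0 member windows, against 0.423% of all windows and 0.250% of those of adipose-listed genes. None of these shares was tested, and a match is a run of letters, not a bound site. Windows of 5 genes are shown as examples, in the direction of the gene. Each gives up to 150 bases before the start site and ends where an annotated exon begins, with the NRF1 or ETS core in capitals. Of the 66 windows of members that rose in adipose tissue, 13 held the NRF1 core and 24 the ETS core. A link between a motif and the response was not tested. In the stretches shown, Mrpl12 and Mrpl17 carry the NRF1 core, Mrpl34 and Mrps18a the ETS core, and the Mrps6 window holds no match to any of these motifs. Outside the stretch shown, the 300-base window of Mrpl17 also holds an ETS core and that of Mrps18a a YY1 core.
Mrpl12, chr11:120484487-120484612, + strand: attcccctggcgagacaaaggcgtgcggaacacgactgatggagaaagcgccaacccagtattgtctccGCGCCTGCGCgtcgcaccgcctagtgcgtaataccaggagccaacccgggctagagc
Mrpl17, chr7:105811100-105811237, - strand: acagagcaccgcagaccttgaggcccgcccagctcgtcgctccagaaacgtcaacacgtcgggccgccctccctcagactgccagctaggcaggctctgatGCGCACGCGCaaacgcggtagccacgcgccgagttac
Mrpl34, chr8:71464776-71464925, + strand: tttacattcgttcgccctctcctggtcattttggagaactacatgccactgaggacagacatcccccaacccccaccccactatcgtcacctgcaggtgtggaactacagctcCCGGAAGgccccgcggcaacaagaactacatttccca
Mrps18a, chr17:46110854-46110985, + strand: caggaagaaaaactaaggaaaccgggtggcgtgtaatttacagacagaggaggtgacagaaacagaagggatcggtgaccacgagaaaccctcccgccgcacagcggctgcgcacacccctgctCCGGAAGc
Mrps6, chr16:92058186-92058269, + strand: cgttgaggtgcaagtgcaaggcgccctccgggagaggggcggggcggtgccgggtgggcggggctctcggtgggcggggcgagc

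The libraries carried the markers of their labelled tissues. Summed over 10 marker genes each, hepatocyte markers reached 45577 to 122206 CPM in liver and skeletal muscle fibre markers 68440 to 165232 CPM in muscle. Enterocyte markers, also 10 genes, summed to 36680 to 85154 CPM in the intestinal libraries, except for sham replicate 4 of ileum, which held 21030 CPM. That library also held 4362 CPM of intestinal stem cell markers (8 genes), against 47.2 to 213 CPM in the other ileum libraries. Pancreatic acinar markers (16 genes) summed to 61026 to 90359 CPM in sham replicates 1 to 3 of duodenum and to 28.2 to 15520 CPM in its other libraries. In liver 5 libraries (RYGB replicates 2, 3 and 4 and sham replicates 1 and 2) step more coarsely at low CPM than the other 46, so that fewer reads lie behind their low values. The RYGB muscle libraries carry a source name that reads sham, while their titles and surgery labels read RYGB, and were used as RYGB.

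Summed over all members, the share of listed CPM differed most between the groups in adipose tissue. There the members took 0.152% to 0.180% of CPM in the 5 sham libraries (median 0.159%) and 0.217%, 0.291%, 0.391% and 0.412% in the 4 RYGB libraries. The adipose groups did not overlap, and RYGB replicate 3, the lowest, still lay above the highest sham library. In jejunum the sham libraries held 0.0719% to 0.0855%. Of the jejunum RYGB libraries, 3 held 0.110% to 0.127%, and replicate 2 held 0.0699%, below every sham library. In duodenum 4 sham libraries held 0.0810% to 0.0921% and the fifth 0.134%, and the RYGB libraries held 0.110% to 0.168%. The liver shares overlapped, at 0.0587% to 0.106% in sham and 0.0872% to 0.139% in RYGB, as did those of muscle, at 0.175% to 0.213% and 0.171% to 0.213%. In ileum sham replicate 4 stood apart at 0.237%, against 0.0598% to 0.0767% in the other sham libraries and 0.0801% and 0.128% in the 2 RYGB libraries.

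**Figure D1:**
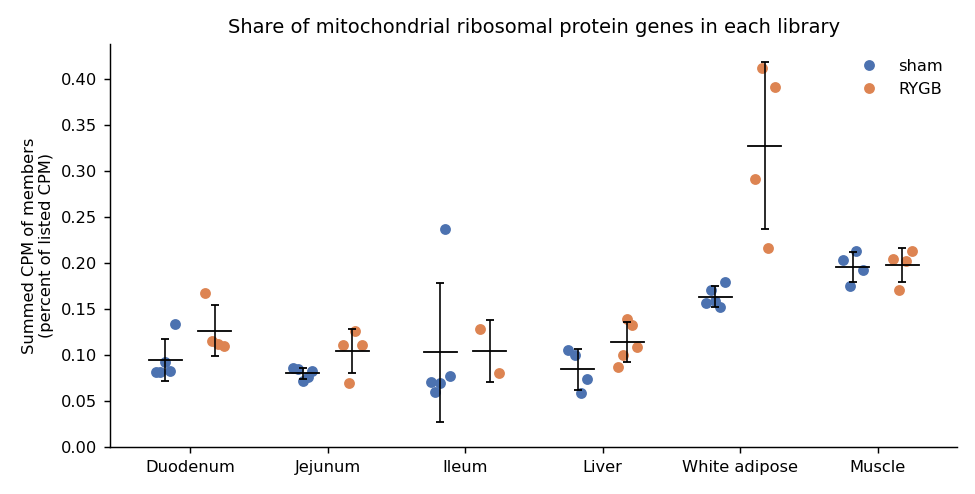
Summed CPM of the mitochondrial ribosomal protein genes as a percent of listed CPM in each library, by tissue; points are libraries, black lines the group mean and bars ± SD. The adipose groups do not overlap, and ileum sham replicate 4 lies at 0.237%.

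Levels per kilobase of exon were compared within tissues, and across tissues only as a description, because each table was scaled by itself. The median member in sham libraries stood at 13.3 CPM per kilobase in muscle and 11.9 in adipose tissue. It was lower in ileum (6.33), duodenum (5.32), jejunum (4.51) and liver (3.99). In sham adipose tissue the highest members were Mrpl33 (104 CPM per kilobase), Mrps6 (79.7) and Mrpl20 (56.6), and the lowest were Mrps26 (2.08), Mrpl23 (1.70) and Mrps33 (1.07). Mrpl24, a large subunit protein of the exit tunnel region, led in duodenum (48.3), jejunum (49.5) and ileum (56.5), with Mrpl20 among the 3 highest in each. Its exons overlap those of Rrnad1 on the other strand over at least 463 bases, so its count is uncertain if the counting ignored the strand. Exon overlaps with another gene, on either strand, were found for 31 of the 76 members. Among them are members that rose in adipose tissue, such as Mrpl12, Mrpl19, Mrpl21 and Mrps25. In muscle Mrpl33 (78.6), Mrps23 (66.7) and Mrpl42 (61.5) led, and in liver Mrpl50 (42.7), Mrpl32 (29.1) and Mrpl18 (27.7). Mrps26 was among the 3 lowest in duodenum (0.678), jejunum (0.580), adipose tissue and muscle (2.26).

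In adipose tissue 69 of the 75 members rose after bypass, 1 fell and 5 did not pass the test (limma on log2(CPM + 1), adjusted p below 0.05). Of all 12690 adipose genes, 40.6% were called, 14.3% higher and 26.3% lower. The median log2 fold change of the members was 1.05, against -0.16 for all genes. In 63 members every RYGB library lay above every sham library, which held for 11.7% of all genes. The groups were separated in the opposite direction for Mrpl23 alone, against 22% of all genes. Of the 69, 63 stayed called higher whichever library was left out. Leaving out 1 library gave 64 to 72 members called higher. With median-of-ratios scaling, which moved the median of all genes from -0.16 to 0.00, 72 members were called higher and none lower, and 50.8% of all called genes were higher, against 35.2% before. As in any bulk tissue, fewer cells of a type and less RNA per cell cannot be told apart.

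**Figure D2:**
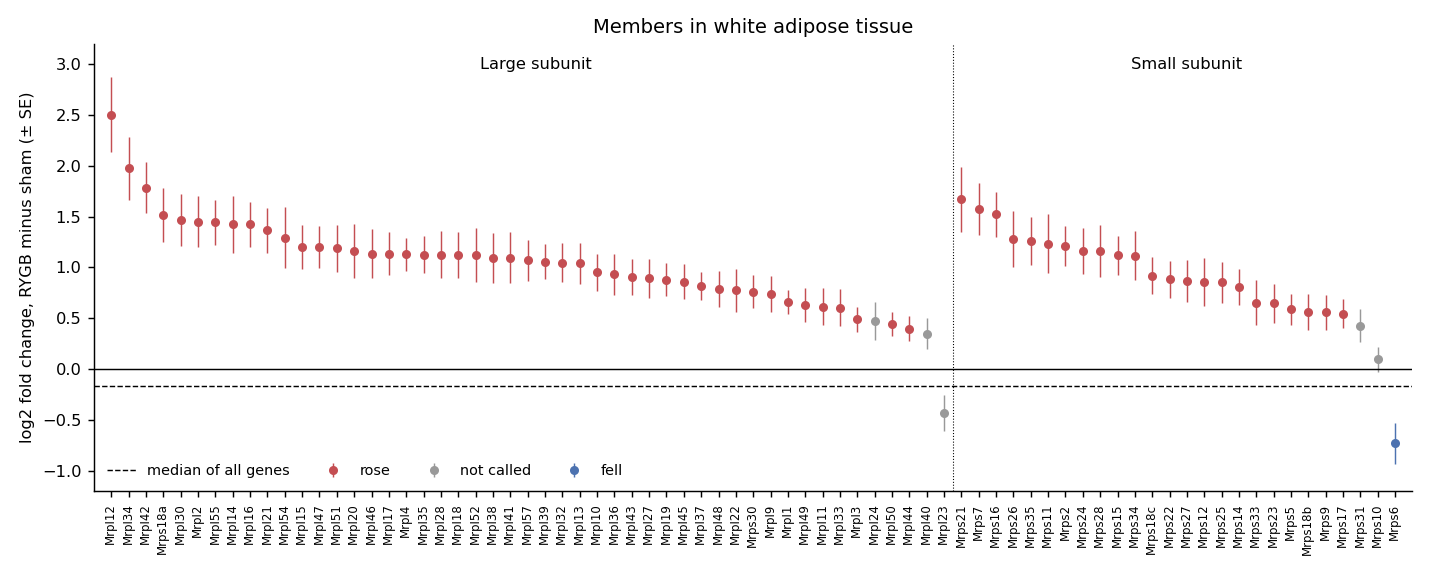
Log2 fold change on the log2(CPM + 1) scale (RYGB minus sham, ± SE) of each of the 75 members in adipose tissue, by ribosomal subunit; the dashed line is the median of all genes. Of the points, 69 are called higher (red), 5 not called (grey) and 1, Mrps6, lower (blue).

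The largest rise was that of Mrpl12 (chromosome 11, 120484613 to 120489065), the stalk protein of the large subunit, which also binds the mitochondrial RNA polymerase. It measured 12.6, 13.8, 14.3, 11.7 and 20.2 CPM in sham and 99.3, 159.3, 33.1 and 101.7 CPM in RYGB adipose tissue. The groups did not overlap, and RYGB replicate 3 was the lowest of its group by a wide margin. Its log2 fold change was 2.50 ± 0.37 (SE, adjusted p = 0.000763). Mrpl34, a small basic protein of the large subunit, followed with 4.4, 2.6, 3.8, 2.9 and 4.0 CPM in sham and 12.2, 25.9, 9.1 and 26.1 CPM in RYGB. Its log2 fold change was 1.98 ± 0.31 (adjusted p = 0.00100).

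The smallest p-value belonged to Mrpl42, a large subunit protein found only in mitochondria. It rose from 10.1 ± 1.51 CPM (SD, n = 5) to 39.2 ± 14.6 CPM (SD, n = 4), with sham libraries at 10.8, 8.6, 10.4, 8.6 and 12.1 CPM and RYGB libraries at 32.7, 49.8, 21.7 and 52.7 CPM. The log2 fold change was 1.79 ± 0.25 (adjusted p = 0.000546). Mrps16, a small subunit protein with a bacterial counterpart, came next: its sham libraries lay at 5.8 to 7.7 CPM and its RYGB libraries at 17.3, 29.6, 13.6 and 26.1 CPM. Its log2 fold change was 1.52 ± 0.22 (adjusted p = 0.000729). Mrpl4, a protein of the exit tunnel wall, had a smaller rise with little spread, from 16 to 22 CPM in sham to 44.2, 41.3, 33.2 and 55.5 CPM in RYGB. Its log2 fold change was 1.13 ± 0.17 (adjusted p = 0.000744). Mrpl55, with a bacterial counterpart, went from 10.7 to 15.2 CPM in sham to 34.6, 52.1, 22.9 and 44.1 CPM, and Mrpl16, likewise, from 9.4 to 12.8 CPM to 29.2, 41.0, 18 and 36.1 CPM. Neither gene's groups overlapped. The other 3 of the 10 smallest p-values belonged to Mrpl39 (log2 fold change 1.06), Mrpl21 (1.37) and Mrpl35 (1.13).

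**Figure D3:**
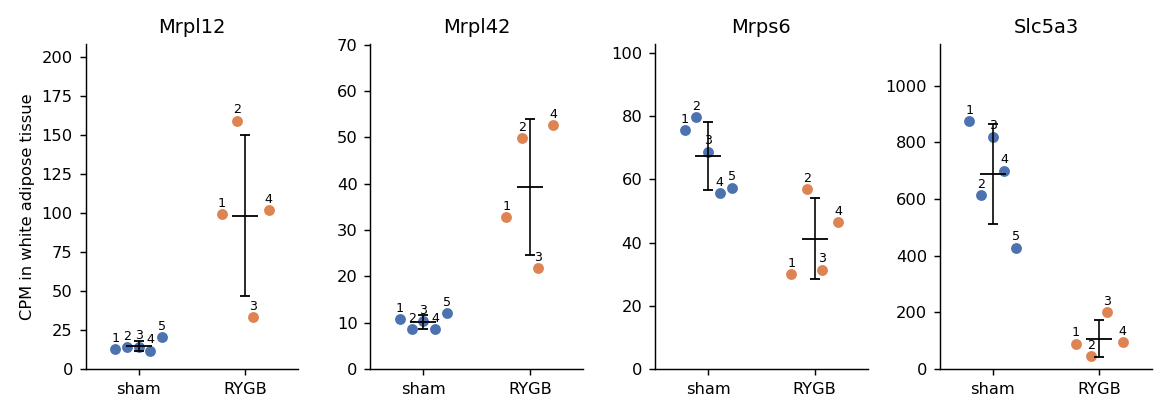
CPM of Mrpl12, Mrpl42, Mrps6 and Slc5a3 in each adipose library (points, numbered by replicate), with group mean and SD in black. The RYGB libraries lie above all sham libraries for Mrpl12 and Mrpl42 and below them for Slc5a3, while those of Mrps6 overlap with sham.

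The rise was shared by both subunits. Of the 49 large subunit members listed in adipose tissue, 46 rose and none fell, with a median log2 fold change of 1.07, and of the 26 small subunit members 23 rose and 1 fell, with a median of 0.88. Of the 46 members with bacterial counterparts 42 rose (median 1.12), and of the 29 found only in mitochondria 27 rose (median 0.88). These medians were not tested against each other. The paralogues Mrps18a, Mrps18b and Mrps18c, which descend from the same bacterial protein and occupy different places in the mitoribosome, all rose by different amounts. Mrps18a, the copy in the large subunit, went from 17.4 to 24.5 CPM in sham to 44.6, 99.4, 35.4 and 73.2 CPM in RYGB, a log2 fold change of 1.52 ± 0.27 (adjusted p = 0.00176). Mrps18c went from 10.8 to 14.5 CPM to 19.8, 30.4, 18.7 and 28.4 CPM (0.92 ± 0.18, adjusted p = 0.00303). Mrps18b went from 6.9 to 9.3 CPM to 13.8, 14.3, 8.7 and 13.3 CPM (0.56 ± 0.18, adjusted p = 0.0281). RYGB replicate 3 of Mrps18b lay within the sham range. Its call was lost when any of 6 of the 9 libraries was left out (RYGB replicates 1 and 2, sham replicates 1, 2, 4 and 5), with adjusted p-values of 0.0559 to 0.0668. With the length trend removed the log2 fold change was 0.12 (adjusted p = 0.597), and with the replicate block the adjusted p was 0.127. Antisense Gm16279 overlaps Mrps18b over at least 578 bases.

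The order of the adipose RYGB libraries was nearly the same for most members. Replicate 3 was the lowest RYGB library in 72 of the 75 members, and replicates 2 and 4 were the highest in 45 and 25. Replicate 3 still lay above every sham library in 64 members, replicate 1 in 72, replicate 2 in 72 and replicate 4 in 73. Such counts per library were not made for all genes. Marker levels of other cells and states also differed between these libraries. The 10 general adipocyte markers summed to 21613 to 25466 CPM in sham and to 35266, 66071, 25079 and 31740 CPM in RYGB replicates 1 to 4, so replicate 3 was again lowest and replicate 2 highest. The list did not move as a whole: 3 of the 10 rose, 1 fell and 6 were not called. Their median log2 fold change was 0.28. The 10 thermogenic fat markers, a list added after the data were seen, summed to 97.0 to 156 CPM in sham and to 482, 1123, 467 and 4220 CPM in RYGB, with none at 0 in RYGB. Of these 10, 9 rose, among them Ucp1 (uncoupling protein of brown fat, log2 fold change 5.90) and Cidea (4.78), and Prdm16 fell (-0.62). Smooth muscle markers (6 of 8 listed, Cnn1 and Actg2 not listed) summed to 466 to 1243 CPM in sham and 138 to 253 CPM in RYGB. Of these 6, 3 fell, 1 rose and 2 were not called. Hepatocyte markers (8 of 10 listed) summed to 502 to 1598 CPM in sham and 2799 to 16512 CPM in RYGB, nearly all of it Cyp2e1, while Alb fell (62.7 to 272.6 CPM in sham, 54.1 to 65.6 CPM in RYGB). T and B cell markers (8 of 9 listed, Cd79a not listed) summed to 8.30 to 23.4 CPM in sham and to 7.60, 4.50, 82.1 and 513 CPM in RYGB. Without RYGB replicates 3 and 4, the libraries highest in T and B cell markers, 70 members rose and 1 fell. In that fit 15.7% of all 12690 genes rose and 5487 genes fell. The part of the adipocyte, thermogenic, smooth muscle, hepatocyte and T and B cell marker levels in the result was not tested.

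In adipose tissue fold changes also ran with gene length. Over all genes the median log2 fold change was 0.88 for genes of up to 800 exonic bases, 0.28 for those of 1200 to 1600 bases and -0.54 for those above 6000 bases. Members are short, with a median of 1398 exonic bases against 3383 for all adipose genes. Within each length range the members stood above the other genes: the 11 members of up to 800 bases had a median of 1.16, and the 3 above 6000 bases one of 0.85. Of the 25 members above 2000 bases all rose, in ranges where 3.40% to 16.6% of genes rose. After the length trend was removed from each library, an alternative chosen after the data were seen, 58 members rose and 3 fell (Mrps6, Mrpl23 and Mrpl33). In that fit 18.3% of 12675 genes rose and 2321 genes fell. The median log2 fold change was 0.77 for the members and 0.01 for all genes. Mrpl12 then had a log2 fold change of 2.20.

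**Figure D4:**
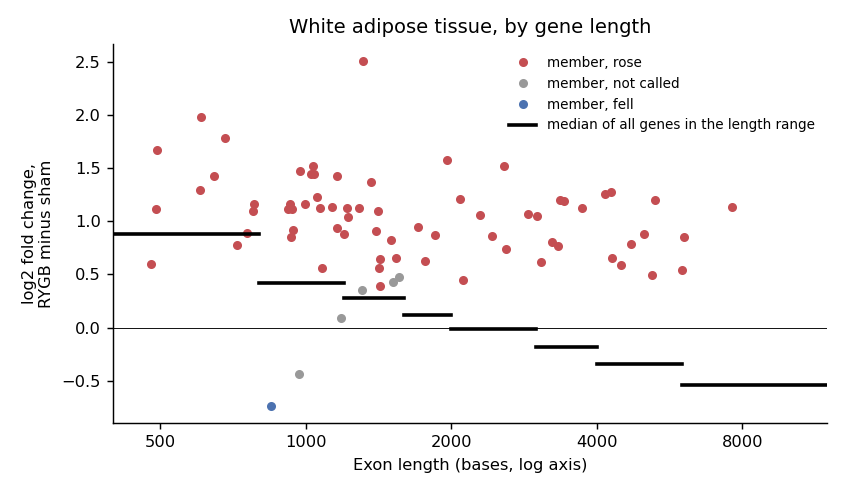
Log2 fold change in adipose tissue of the 75 members (points) against exon length on a log axis, with the median of all genes in each length range as black bars. The bars fall from 0.88 to -0.54 with length, while the medians of the members in these ranges lie between 0.82 and 1.16. The Spearman correlation of length with log2 fold change is -0.42 over all genes and -0.24 over the members.

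Mrps6, a small subunit protein with a bacterial counterpart, was the member that fell. It measured 75.6, 79.7, 68.8, 55.7 and 57.4 CPM in sham and 30.0, 57.0, 31.4 and 46.5 CPM in RYGB adipose tissue. The groups overlapped, since RYGB replicate 2 lay within the sham range. The log2 fold change was -0.73 ± 0.21 (adjusted p = 0.0162), and with median-of-ratios scaling it was -0.55 with an adjusted p of 0.0720. With the length trend removed it was -1.35 (adjusted p = 0.000182). Mrps6 shares at least 159 bases of exon on the same strand with Slc5a3, a transporter of myo-inositol, so the counts from the shared bases are uncertain. Slc5a3 measured 428.1 to 876.5 CPM in sham and 89.2, 45.6, 199.6 and 95.0 CPM in RYGB adipose tissue, and fell with a log2 change of -2.82 ± 0.36 (adjusted p = 0.000397). The part of the shared exon in the fall of Mrps6 was not tested. Mrps6 was also far higher per kilobase in sham adipose tissue than the median member, at 79.7 against 11.9.

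The 5 adipose members that did not pass the test were Mrps31, Mrpl24, Mrpl40, Mrps10 and Mrpl23. Mrps31 (log2 fold change 0.43), Mrpl24 (0.48) and Mrpl40 (0.35) lay above 0 with adjusted p-values of 0.0568, 0.0614 and 0.0942. Mrps10, a small subunit protein with a bacterial counterpart, measured 15.3 to 16.1 CPM in sham and 15.9, 16.8, 16.6 and 18.4 CPM in RYGB. Its groups overlapped, and its log2 fold change was 0.10 ± 0.12 (adjusted p = 0.547). Mrpl23, a protein at the exit of the tunnel, measured 1.4 to 2.1 CPM in sham and 0.9, 1.2, 0.8 and 0.9 CPM in RYGB, near the minimum at which genes were listed. Its log2 fold change was -0.43 ± 0.18 (adjusted p = 0.0688).

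The genes around the mitoribosome were counted from lists of its partners, beside 14.3% of all adipose genes that rose and 26.3% that fell. In adipose tissue all 6 ribosomal subunits with other symbols rose, among them Gadd45gip1 (log2 fold change 1.36) and Dap3 (0.89), a GTP-binding small subunit protein. Of 18 translation factors 8 rose and none fell, led by Gfm1 (elongation factor G, 0.97), Slirp (an RNA-stabilising partner of Lrpprc, 1.29), Gfm2 (0.76) and Tufm (elongation factor Tu, 1.56). Of 24 assembly factors 7 rose and none fell, led by Mpv17l2 (1.22) and Rbfa (1.13). Of 11 genes of mitochondrial DNA replication and transcription 3 rose, namely Supv3l1 (0.70), Polrmt (the mitochondrial RNA polymerase, 0.74) and Elac2 (0.60), while Tfam had a log2 fold change of 0.17 (adjusted p = 0.462). Of 10 chaperones and proteases 9 rose, with Hspe1 at 1.91 and Hspd1, its partner chaperonin, at 1.18. Of 16 import genes 12 rose, with Timm50 at 1.76, and 1, Tomm20, fell (-0.53). None of the 15 transcripts of the mitochondrial genome looked for was listed in any of the 6 tables, so the products that the mitoribosome translates could not be compared.

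Among 10 regulators of mitochondrial biogenesis 4 rose and 2 fell in adipose tissue, where 14.3% of all genes rose and 26.3% fell. Esrra, an orphan nuclear receptor, went from 9.5 to 12.9 CPM in sham to 39.4, 49.8, 18 and 60.1 CPM in RYGB (log2 fold change 1.69). Ppargc1a, a coactivator that induces oxidative genes, went from 22.9 to 27.6 CPM to 64.9, 92.5, 32.7 and 55.9 CPM (1.16), and its relative Ppargc1b rose as well (1.87). Gabpa, the DNA-binding GABP subunit that recognises the ETS core, went from 106.3 to 129.0 CPM down to 68.2, 54.5, 94.2 and 79.5 CPM (-0.65), and Yy1 fell too (-0.57). Nrf1 had a log2 fold change of -0.07 (adjusted p = 0.761). Esrra, Ppargc1a and Ppargc1b had their lowest RYGB value in replicate 3, as did 72 of the 75 members and the summed general adipocyte markers. The part of these regulators in the result was not tested. The gene groups gathered by symbol after the data were seen are given for scale: 73 of 76 respiratory chain and ATP synthase subunits rose and 1 fell (median 1.74), and 33 of 77 cytosolic ribosomal proteins rose and none fell (median 0.60).

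In jejunum 3 of 74 members rose and none fell, where 12.6% of all 11021 genes were called, 6.32% higher and 6.29% lower. In 4 members (Mrps6, Mrpl38, Mrpl21 and Mrpl46) every RYGB library lay above every sham library (7.53% of all genes) and in none below (6.75%). The median log2 fold change of the members was 0.41, against 0.08 for all genes, and 67 members lay above 0, as did 56.8% of all genes. With the length trend removed the median was 0.20 against 0.02 for all genes, and 54 members lay above 0. Mrps6 had the largest change, from 1.3, 1.5, 0.5, 1.3 and 2.3 CPM in sham to 8.6, 5.3, 4.2 and 3.1 CPM in RYGB. The groups did not overlap, and the log2 fold change was 1.38 ± 0.30 (adjusted p = 0.0184). Slc5a3, which shares its exon, measured 7.9 to 11.2 CPM in sham and 14, 65.8, 6.5 and 13.4 CPM in RYGB jejunum (0.85 ± 0.51, adjusted p = 0.281). Mrpl38, a large subunit protein found only in mitochondria, rose from 1.2 to 3.4 CPM to 5.7, 4.2, 8.7 and 6.6 CPM (1.08 ± 0.26, adjusted p = 0.0261). Mrpl51, also found only in mitochondria, rose from 5.4 to 8.7 CPM to 19.1, 8.1, 21.6 and 13.3 CPM (0.99 ± 0.27, adjusted p = 0.0371), with RYGB replicate 2 inside the sham range. Mrpl12 measured 12.1 to 16.8 CPM in sham and 39.1, 14.6, 53.6 and 24.6 CPM in RYGB and missed the threshold (1.02 ± 0.31, adjusted p = 0.0549). The lowest log2 fold change was that of Mrps17, a small subunit protein (-0.33, adjusted p = 0.221).

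Replicate 2 of the jejunum RYGB group went apart from the other 3. It lay above all sham libraries in 5 members and below all of them in 21. Replicates 1, 3 and 4 lay above all sham libraries in 51, 58 and 51 members. Such counts per library were not made for all genes, so no background stands beside them. The median-of-ratios scaling factor of replicate 2 was 0.848, against 0.909 to 1.02 in sham jejunum. Without replicate 2, 18 members rose, against 3 with it, while the share of all genes that rose went from 6.32% to 9.79%. Stem cell markers (7 of 8 listed) summed to 36.6 to 62.2 CPM in sham jejunum and to 86.4, 57.4, 128 and 188 CPM in RYGB replicates 1 to 4. Proliferating crypt cell markers (14 of 17 listed) summed to 52.2 to 110 CPM in sham and 76.5 to 241 CPM in RYGB, and the part of both in the result was not tested. Leaving out each other library gave 1 to 4 members. Only Mrps6 was called in every such fit, while Mrpl38 lost its call in 5 and Mrpl51 in 7 of the 9.

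In liver 1 of 69 members rose and none fell, where 4.63% of 10285 genes were called, 2.03% higher and 2.6% lower. In 2 members (Mrpl30 and Mrps23) every RYGB library lay above every sham library (4.34% of all genes) and in Mrpl18 alone below (8.01%). Mrpl30, a large subunit protein with a bacterial counterpart, measured 6.2, 7.6, 1.8 and 2.1 CPM in sham and 26.0, 8.0, 27.4, 16.7 and 12.5 CPM in RYGB. The groups did not overlap, although RYGB replicate 2 lay just above the highest sham library. The log2 fold change was 1.86 ± 0.48 (adjusted p = 0.0484), and the call was lost when any of 6 of the 9 libraries was left out (RYGB replicates 2, 3 and 4, sham replicates 2, 3 and 4). Mrpl15 measured 20.8, 20.4, 3.8 and 8.6 CPM in sham and 18.7, 41.1, 50.8, 48.7 and 27.9 CPM in RYGB (1.58 ± 0.49, adjusted p = 0.0661). Mrpl40 measured 5.6, 7.6, 0.3 and 0.8 CPM in sham and 5.4, 13.7, 13.3, 15.9 and 8.7 CPM in RYGB (1.79 ± 0.59, adjusted p = 0.0731). In both genes RYGB replicate 1 lay inside the sham range. Mrpl32, the member with the lowest log2 fold change, measured 51.1 to 132.7 CPM in sham and 78.8, 31.8, 21.6, 22.2 and 66.0 CPM in RYGB (-1.09 ± 0.44, adjusted p = 0.113).

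The liver members had a median log2 fold change of 0.84 against 0.26 for all genes, with a median SE of 0.46. Within the 5 coarser-stepped libraries the median of the members was 0.61 against -0.01 for all genes, and within the 4 finer-stepped libraries 0.56 against 0.41. Each of these fits called 5 of 69 members higher, near the share of all genes called higher (4.72% in the coarser-stepped and 5.98% in the finer-stepped libraries). With the length trend removed, the median of the members was 0.35 against 0.02 for all genes. Without RYGB replicate 1 the whole fit called 17 members higher and 1 lower, where 13.4% of all genes were higher. Without sham replicate 1 it called 5 higher, where 8.42% of all genes were, and without sham replicate 3 the median was 0.62. Hepatocyte markers summed to 45577 to 58071 CPM in sham and 47125 to 122206 CPM in RYGB liver. Macrophage markers (7 of 8 listed) summed to 124 to 208 CPM in sham and to 175 to 1015 CPM in RYGB liver, and the part of both in these values was not tested.

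In duodenum none of 75 members passed the test, where 38 of 10930 genes, or 0.348%, were called (0.128% higher, 0.22% lower), and 23 members had an unadjusted p below 0.05, as did 2486 genes. The median log2 fold change of the members was 0.37 against 0.15 for all genes, and with median-of-ratios scaling or with the length trend removed it was 0.21 against -0.01. Mrps2, a small subunit protein with a bacterial counterpart, came closest, with 12.4, 6.6, 8.2, 11.1 and 12.4 CPM in sham and 32.7, 21.1, 17.0 and 26.1 CPM in RYGB. Its groups did not overlap (1.18 ± 0.25, adjusted p = 0.0552). Mrpl3, which reaches towards the peptidyl transferase centre, measured 14.5 to 18.7 CPM in sham and 45.7, 28.4, 24.2 and 27.6 CPM in RYGB (0.83 ± 0.21, adjusted p = 0.0724). Mrpl15 measured 23.3 to 44.1 CPM in sham and 57.8, 58.8, 50.3 and 81.7 CPM in RYGB (0.88 ± 0.23, adjusted p = 0.0763). These 3 were among 9 members whose RYGB libraries lay above all sham libraries, against 5.88% of all genes, and in no member did they lie below (1.69%). The largest log2 fold change was that of Mrps27 (1.20, adjusted p = 0.0807) and the lowest that of Mrpl41 (-0.38). Without RYGB replicate 3, 11 members rose, where 7.5% of all genes did, and without sham replicate 5, 6 rose, where 2.77% did. Stem cell markers (7 of 8 listed) summed to 62.7 to 86.0 CPM in sham duodenum and to 376, 123, 91.6 and 417 CPM in RYGB, without overlap. Proliferating crypt cell markers (13 of 17 listed) summed to 57.1 to 101 CPM in sham and to 687, 144, 58.6 and 297 CPM in RYGB, and the part of both in these values was not tested. Without sham replicates 1 to 3, the libraries with the most acinar RNA, none was called and the median was 0.24, against 0.10 for all genes.

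In ileum, with 2 RYGB libraries, none of 75 members and 0 of 12041 genes (0%) passed the test, and 1 member, Mrpl15, had an unadjusted p below 0.05, as did 438 genes. Mrpl15 measured 26.0, 21.1, 26.1, 60.6 and 33.5 CPM in sham and 56.6 and 64.6 CPM in RYGB (0.93 ± 0.40). Mrpl50, found only in mitochondria, measured 14.4, 13.8, 13.7, 38.0 and 16.6 CPM in sham and 27.6 and 27.9 CPM in RYGB. Mrpl36 measured 4.7, 6.4, 5.2, 23.5 and 7.0 CPM in sham and 17.6 and 12.1 CPM in RYGB. In these 3 genes and in Mrps2, which had the largest log2 fold change (0.97), sham replicate 4 was the highest sham library, at or above both RYGB libraries in all but Mrpl15. The lowest log2 fold change was that of Mrps34 (-0.36), which overlaps Nme3 on the same strand. The median of the members was 0.21 with that library and 0.57 without it, and -0.20 without RYGB replicate 1. No member was called in either case. In 1 member, Mrpl27, both RYGB libraries lay above all sham libraries (3.15% of all genes) and in none below (4.94%).

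In muscle none of 74 members and 0 of 11594 genes (0%) passed the test, and no member had an unadjusted p below 0.05, while 812 genes did. In 1 member, Mrps15, every RYGB library lay above every sham library (1.91% of all genes) and in 1, Mrps6, below (1.96%). The members named for such separation alone, here and in the other tissues, were picked after their values were seen. The median log2 fold change was -0.03 for the members and 0.00 for all genes. The members ran from -0.41 for Mrps28, a small subunit protein, to 0.29 for Mrpl15. Mrps28 measured 26.1, 23.4, 19.1 and 23.0 CPM in sham and 17.0, 14.1, 13.8 and 24.1 CPM in RYGB, and its groups overlapped. Mrps9 had the next smallest p-value (-0.41 ± 0.21, adjusted p = 0.747). Mrpl12, which had the largest rise in adipose tissue, measured 25.4, 19.3, 37.3 and 23.9 CPM in sham muscle and 26.9, 12.6, 23.5 and 49.4 CPM in RYGB muscle (-0.03 ± 0.35).

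**Figure D5:**
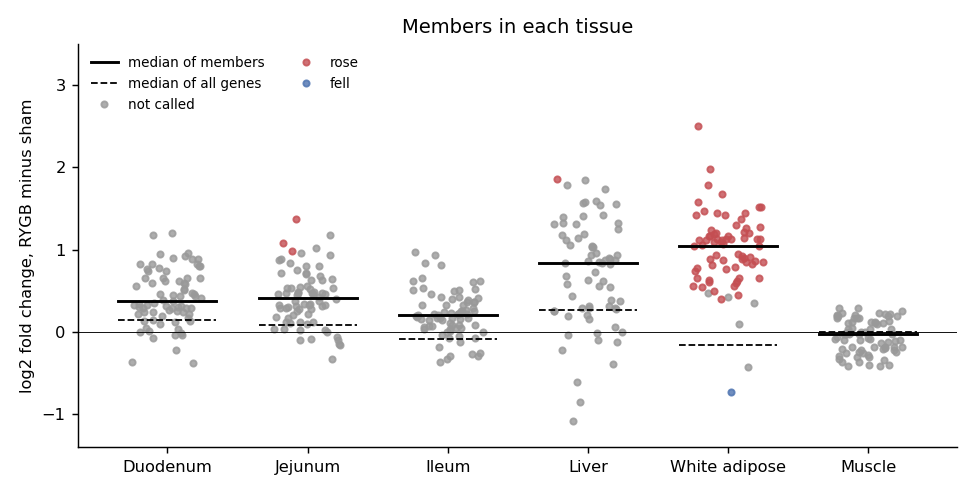
Log2 fold change (RYGB minus sham) of each member in each tissue; solid lines are the median of the members and dashed lines the median of all genes. Called members number 69 higher and 1 lower in adipose tissue, 3 higher in jejunum and 1 higher in liver, and none in duodenum, ileum or muscle.

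Whether the response differed between tissues was tested on the animals that gave both, as the difference between their tissues. Between adipose tissue and muscle (4 sham, 4 RYGB animals), 25 of 74 members had a higher response in adipose tissue and none a lower one, where 12.8% of 11092 genes were called, 4.48% higher and 8.36% lower. Mrpl12 differed by 2.54 ± 0.68 on the log2 scale (adjusted p = 0.0340), and its call was lost when any animal but 1 was left out. The count was 1 without sham animal W11, W12 or W15, 5 to 6 without R2, R4 or W3, 13 without R1 and 56 without RYGB animal R3, whose adipose library is replicate 3. Between adipose tissue and duodenum (5 sham, 3 RYGB animals), 12 of 74 members had a higher response in adipose tissue (5.03% of 9992 genes) and 1, Mrps6, a lower one (11%), where 16% were called in all. The Mrps6 difference was -1.30 ± 0.38 (adjusted p = 0.0382), and its call was lost with median-of-ratios scaling (adjusted p = 0.0543) and when R2, R3, W11, W12, W14 or W15 was left out. Mrpl12 differed by 2.12 ± 0.41 (adjusted p = 0.00826). The count of members called in either direction fell from 13 to 3 without sham animal W14, 4 without R4, 6 without W12 or W15 and 7 without R2 or W3. Between adipose tissue and liver (4 sham, 4 RYGB animals), 3 of 69 members were called higher (3.36% of 9707 genes), namely Mrpl18, Mrpl32 and Mrpl34, and 1, Mrps6, lower (9.46%), where 12.8% were called in all. The Mrps6 difference was -1.83 ± 0.50 (adjusted p = 0.0329), and its call was lost when R2, R3, W3, W14 or W15 was left out. Mrpl12 was not called there (1.05 ± 0.95, adjusted p = 0.466). The count of 4 fell to 1 without R2, W3 or W15 and 2 without W14. These 3 comparisons, chosen after the data were seen, share the adipose libraries.

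Against adipose tissue (5 sham, 3 RYGB animals), 21 of 73 members had a lower response in jejunum, where 10.1% of 10091 genes were called lower, and 1, Mrps6, a higher one, where 19.7% were, or 29.8% in all. The smallest p-value here was that of Mrpl15, whose response in jejunum differed by -1.72 ± 0.20 (adjusted p = 0.000398), and Mrpl12 differed by -1.85 ± 0.48 (adjusted p = 0.0158), or by -1.10 without RYGB animal R2. Mrps6, which rose in jejunum and fell in adipose tissue, differed by 2.18 ± 0.41 (adjusted p = 0.00358), and kept its call whichever animal was left out. Without RYGB animal R1, 34 members were called. With median-of-ratios scaling 43 members were called lower in jejunum and 1 higher. No member was called between jejunum and duodenum (5 sham, 3 RYGB animals), where 2.4% of 10663 genes were (0.525% higher, 1.88% lower), or between jejunum and liver (4 sham, 4 RYGB animals), where 0.0673% of 8918 genes were (0.0224% higher, 0.0449% lower). In these fits 4 of 74 and 8 of 68 members had an unadjusted p below 0.05, as did 2169 and 1629 of all genes, which are larger shares.

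The 4 members called in more than 1 tissue were Mrps6, Mrpl38, Mrpl51 and Mrpl30. In adipose tissue Mrpl38 measured 1.10 and Mrpl51 1.19 on the log2 scale, against 1.08 and 0.99 in jejunum, and Mrpl30 measured 1.47 against 1.86 in liver. Mrps36, the gene that is no ribosomal protein, was listed at 0.2 to 1.8 CPM in the sham libraries of the 3 intestinal tissues. Its log2 fold changes of 0.17 in duodenum, -0.11 in jejunum and -0.01 in ileum did not pass the test. Among the partner lists in jejunum, where 6.32% of all genes rose and 6.29% fell, 1 of 17 translation factors rose (Gfm1, 0.72), 2 of 24 assembly factors fell (Nsun4, -0.93, and Trub2, -1.03), and 2 of 10 chaperones and proteases rose (Hspa9, 0.75, and Atf5, 1.64). Ppargc1a fell (-1.07) and Ppargc1b rose (1.30) in jejunum, and Polg2 (-0.75) and Dnajc19 (-0.85) fell there. In liver, where 2.6% of all genes fell, Gabpa (-1.06) and Esrrg (-3.67) fell. No gene of these lists was called in duodenum, ileum or muscle.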

How the data were processed

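Per the labels' protocols, RNA was column-purified and libraries were made with PrepX. The deposited values are CPM per gene, 1 table per tissue, rounded by the authors to 1 decimal. HTSeq did the counting and GRCm38 was the build, per the submitters' processing notes. For the aligner and the strand setting: not given in the sources used here. Repeated lines in the ileum and adipose tables (339 and 374) and 2 and 6 lines without identifier in ileum and liver were dropped. Listed CPM summed to 978879 to 993560 per library; the rounding leaves read depth unknown. Log2(CPM + 1) was fitted with limma 3.58.1 (R 4.3.3; trend and robust options, two-sided) per tissue, on surgery alone, with p-values adjusted by Benjamini-Hochberg over all genes of the table, and on within-animal tissue differences for comparisons between tissues. These p-values reflect variation among the sampled animals alone. Fits were tested on simulated data. Exon lengths, positions and overlaps came from the GENCODE annotation of GRCm38. Values per library are given for called members (at most the 10 smallest p-values per tissue), the 3 smallest p-values and the extremes of fold change in each tissue, members called in several tissues, the Mrps18 paralogues, Mrps36, Mrpl12 and the extremes per kilobase; of other listed genes, up to 4 called per list and the highest are named. Alternatives were other scaling, pseudocount 0.1, a mean CPM of at least 5, a replicate block, leaving out libraries or animals, and, chosen after seeing the data, length correction and library subsets. The members and lists were chosen with earlier results of these data known.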

Additional observations from a re-analysis of the deposited data

Results flagged for a closer look

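The share of CPM held by the members in duodenum RYGB replicate 1 (0.168%), duodenum sham replicate 5 (0.134%) and ileum sham replicate 4 (0.237%) lay far from the rest of its group by Dixon's test at the 95% level. Ileum sham replicate 4 also lay apart for Mrpl50 (38.0 CPM), Mrpl36 (23.5 CPM), Mrps2 (42.6 CPM) and Mrps34 (23.1 CPM). Of 84 groups tested 7 were picked out, and chance picks out about 1 in 20. That ileum library held 4362 CPM of stem cell markers, and duodenum RYGB replicate 1 held 687 CPM of proliferating crypt cell markers against 57.1 to 101 CPM in sham duodenum. The part of these markers was not tested.

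The response to bypass differed between tissues, by a test of the difference itself, for 22 of 73 members between jejunum and adipose tissue. Pooled over both directions, this count is near the background of 29.8% of all genes. By direction, 21 members had a lower response in jejunum (10.1% of all genes) and 1 a higher one (19.7%). It differed for 13 of 74 between adipose tissue and duodenum, when pooled also near the background (16% of all genes). Of these, 12 had a higher response in adipose tissue (5.03% of all genes) and 1 a lower one (11%). Between adipose tissue and liver it differed for 4 of 69, below the background (12.8%), with 3 higher (3.36%) and 1 lower (9.46%). Between adipose tissue and muscle it differed for 25 of 74 (12.8% of all genes). Mrps6 responded more in jejunum than in adipose tissue by 2.18 on the log2 scale, and its response in adipose tissue differed by -1.30 from duodenum and by -1.83 from liver, calls that were lost in 6 and 5 of the 8 fits that left out 1 animal. For Mrpl12 the response differed by -1.85 between jejunum and adipose tissue (-1.10 without RYGB animal R2), by 2.54 between adipose tissue and muscle and by 2.12 between adipose tissue and duodenum. For Mrpl15 it differed by -1.72 between jejunum and adipose tissue.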

How the results depend on the processing

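In adipose tissue the counts of called genes and members stayed within 1.5 times under every alternative run; leaving out 1 library gave 3936 to 6151 genes and 65 to 73 members. The share of adipose calls that were higher was 35.2%, against 50.8% with median-of-ratios scaling. Mrps10, not called, went to -0.28 with the length trend removed. With a mean CPM of at least 5, duodenum gave 105 genes and 1 member. With pseudocount 0.1, liver gave 0 members and muscle 1 gene. Median-of-ratios scaling gave 992 genes and 2 members in liver and 22 genes between jejunum and liver. It gave 44 members between jejunum and adipose tissue, 26 between adipose tissue and duodenum and 7 between adipose tissue and liver. With the length trend removed, jejunum gave 6 members, liver 762 genes, 2 members and a median of 0.35, and muscle 5 genes. Without the 3 acinar-rich sham libraries duodenum gave 0 genes. In liver the finer-stepped libraries gave 718 genes and 5 members, the coarser-stepped 972 genes and 5 members.

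A shared replicate number does not link a sham animal to a RYGB animal, and in no tissue did every same-numbered pair correlate above 0.1. With the replicate block, duodenum gave 450 genes and 3 members, jejunum 455 genes and 1 member, ileum 593 genes and 3 members, liver 7 genes and 0 members, muscle 2 genes, and adipose tissue 65 members higher and 1 lower.

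Leaving out 1 library gave 1 to 982 genes and 0 to 11 members in duodenum, 484 to 2258 genes and 1 to 18 members in jejunum, and 0 to 46 genes in ileum. It gave 3 to 2253 genes and 0 to 18 members in liver and 0 to 24 genes in muscle, where Mrpl12 ran from -0.35 to 0.28. Leaving out 1 animal gave 53 to 314 genes and 0 to 1 members between jejunum and duodenum, and 0 to 119 genes between jejunum and liver. It gave 15 to 34 members between jejunum and adipose tissue. Between adipose tissue and duodenum it gave 658 to 1751 genes and 3 to 18 members, for liver 383 to 2187 genes and 1 to 6 members, and for muscle 515 to 3644 genes and 1 to 56 members. The causes were not tested. Few RYGB libraries limit ileum, and values near 1 CPM rest on few reads.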
